A study of Mus musculus with 20 samples.

Results

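The genes described here are 34 markers of tissue macrophages and of Kupffer cells, the macrophages that line the liver sinusoids. They were taken by symbol from a deposited table of 45802 gene entries, and all 34 had a value in every one of the 20 libraries. Bulk RNA sequencing was done on whole livers of C57BL/6 mouse fetuses at stage E17.5. Every dam had been fasted for 24 h before collection, so no fed group is part of the comparisons. Each of the 5 groups held 4 fetuses, 2 male and 2 female, and each fetus gave 1 library.

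HetDam_HetFetus held Ppara heterozygous fetuses of Ppara heterozygous dams. KODam_HetFetus held heterozygous fetuses of Ppara knockout dams, and KODam_KOFetus held knockout fetuses of Ppara knockout dams. Ppara encodes the nuclear receptor PPARA, which switches on fatty acid oxidation during fasting. FloxDam_FloxFetus held fetuses with floxed Cpt2 alleles (Cpt2f/f) from Cpt2f/f dams. Cpt2LKODam_FloxFetus held Cpt2f/f fetuses of dams that carried Cpt2f/f with Albumin-Cre, a Cre driven by a hepatocyte promoter, so that Cpt2, a mitochondrial enzyme of long-chain fatty acid oxidation, is removed from the maternal liver. Titles and design text name some of these animals wild-type although their genotype fields give heterozygous or floxed alleles, and the genotype fields are followed here.

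Kupffer cells arise from yolk sac and fetal liver precursors, and the identity of the mature cell depends on the growth factor receptor CSF1R and on transcription factors that include PU.1 (Spi1), SPIC and LXR alpha (Nr1h3). They clear particles, complement-coated microbes, dying cells and hemoglobin from the blood. The liver at this stage is also the main blood-forming organ, and its macrophages sit at the centre of erythroblastic islands, where they engulf the nuclei that red cell precursors expel. Several of the 34 genes are not restricted to macrophages: Nr1h3 is also used by hepatocytes, and Fcer1g, Tyrobp, Sirpa, Spi1 and Ccr2 by monocytes, granulocytes or their precursors.

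The values are deposited log2 values of a quantity that the sources used here do not name. Each step of 1 on this scale multiplies that quantity by 2. Whether it is scaled by transcript length is not known, so no level is compared between genes. Genes entered the test if 4 or more libraries reached a log2 value of 0, which 11807 genes and 32 of the 34 members did. Cd163 and Ms4a7 did not. Groups were compared with limma, fitted across all tested genes, and a gene was called where its adjusted p was under 0.05. Differences are given with their standard error, with 4 libraries in each group.

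Some facts about the libraries touch the results below. The sample descriptions carry a number that no label explains and that is read here as the litter. KODam_HetFetus replicates 1 and 2 share it, as do KODam_KOFetus replicates 1 and 2 and FloxDam_FloxFetus replicates 3 and 4, and the test counts each fetus as independent. HetDam_HetFetus replicate 4 and KODam_KOFetus replicate 2 held transcripts of skeletal muscle at 12.1 and 17.1 times the median library, and Cpt2LKODam_FloxFetus replicate 2 held those of exocrine pancreas at 7.72 times. Ppara itself stood at 2.94, 2.86, 3.47 and 3.25 in HetDam_HetFetus, at 2.17, 1.81, 3.05 and 3.22 in KODam_HetFetus and at 2.40, 2.48, 1.87 and 2.30 in KODam_KOFetus. The knockout fetuses therefore kept a Ppara signal below every HetDam_HetFetus library, and which exon is deleted is not stated in the labels. Within KODam_HetFetus the presumed littermates, at 2.17 and 1.81, lay within or just below the KODam_KOFetus range. Replicates 3 and 4, at 3.05 and 3.22, lay within the HetDam_HetFetus range, although all 4 are labelled heterozygous. Why the pair differed was not tested. Cpt2 stood at 3.61 to 4.26 in FloxDam_FloxFetus and 3.83 to 3.95 in Cpt2LKODam_FloxFetus fetuses, whose own alleles are not deleted. Hepatocyte and erythroid markers were high in all 20 libraries, as the labelled tissue requires.

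**Figure D1:**
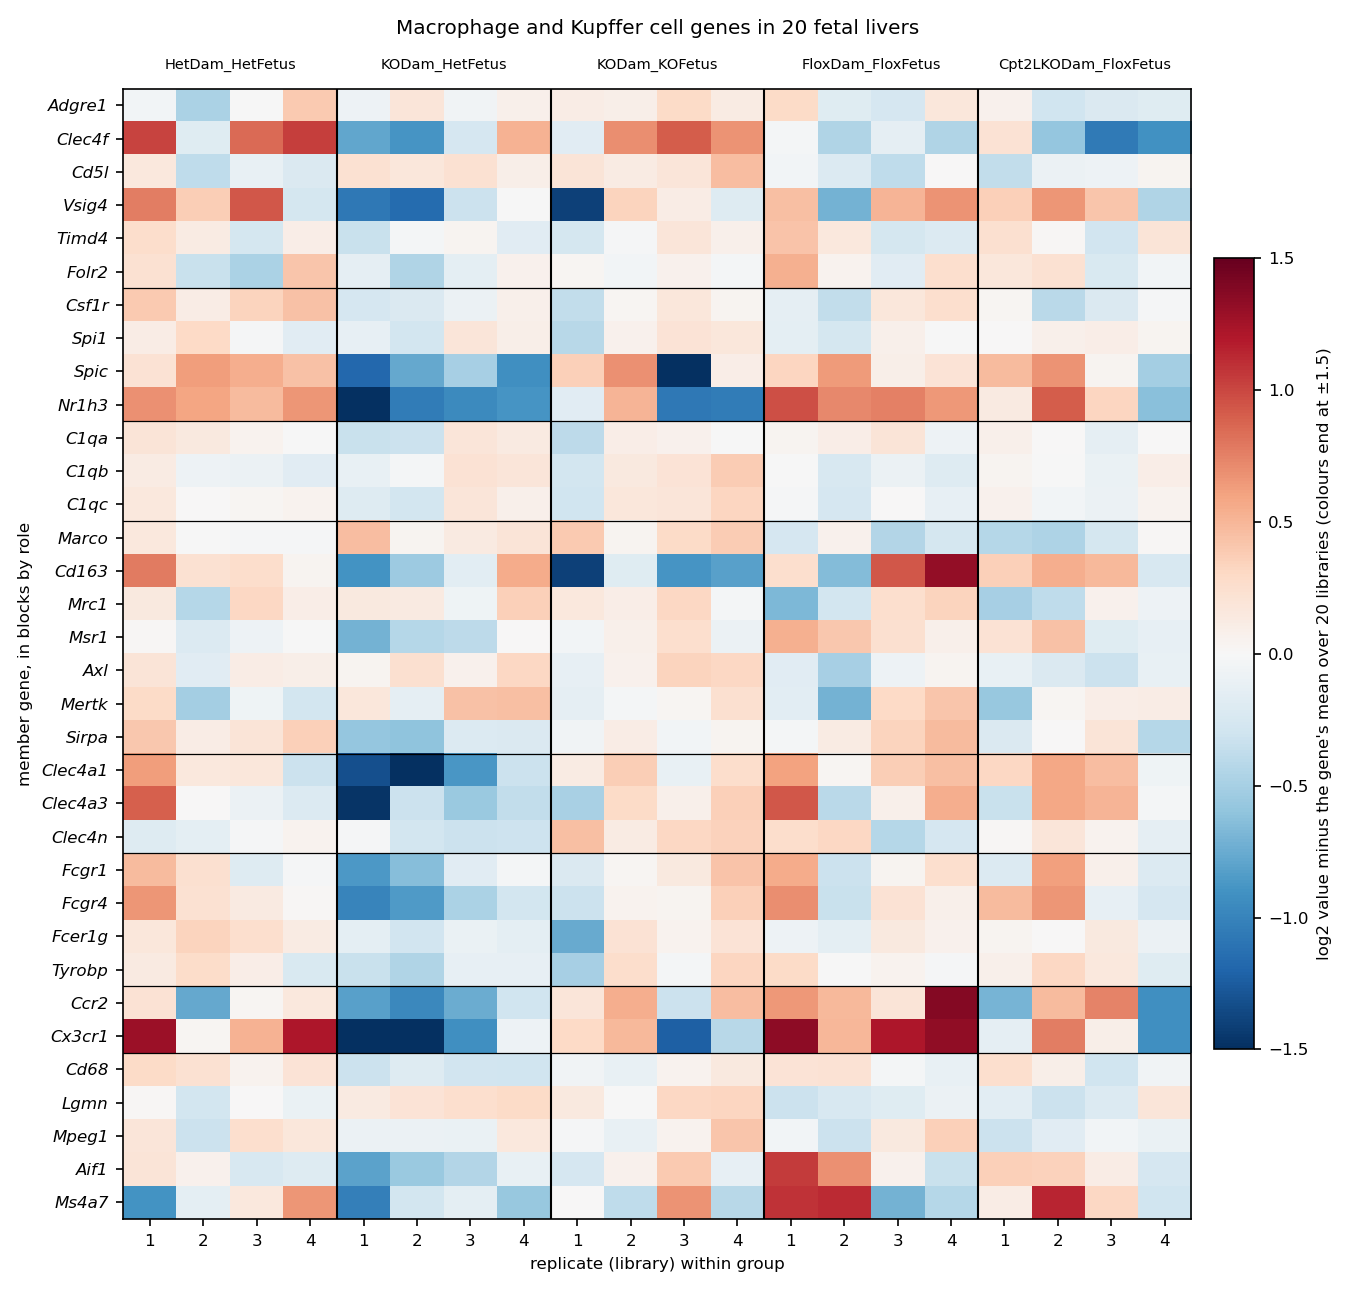
Heat map of the 34 macrophage genes (rows, ordered by role) in the 20 libraries (columns, by group). Colour gives each library's log2 value minus the mean of that gene over the 20 libraries. Blue cells, below the mean, fill all KODam_HetFetus libraries for Nr1h3 and Spic. For Vsig4, Clec4a1, the Fc receptor genes and Cx3cr1 they are, within KODam_HetFetus, deepest in replicates 1 and 2. The C1q rows stay pale throughout.

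The promoters of 5 genes are shown here, since these genes moved in different directions or not at all. PU.1, the product of Spi1, binds sites built around the letters GAGGAA or AGGAAGT. RefSeq promoter windows of 250 bases before to 50 bases after a gene start (build GRCm38.p6) were available for 26 of the 34 genes, in 31 windows. Fcgr4, Clec4a1 and Spic were among the genes called lower in KODam_HetFetus, Cd5l was called higher, and C1qc was not called in any comparison. Each is printed 5′ to 3′ on the strand of its gene, and capitals mark a match to GAGGAA or AGGAAGT on either strand, so that TTCCTC and ACTTCCT are the same letters read on the other strand.
Fcgr4, chr1:171018676-171018975, plus strand: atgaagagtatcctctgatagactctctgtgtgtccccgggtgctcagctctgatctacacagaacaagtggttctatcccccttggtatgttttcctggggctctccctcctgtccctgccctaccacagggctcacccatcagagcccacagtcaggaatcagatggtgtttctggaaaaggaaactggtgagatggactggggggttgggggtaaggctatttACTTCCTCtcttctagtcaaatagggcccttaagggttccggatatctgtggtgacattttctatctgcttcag
Clec4a1, chr6:122921598-122921897, plus strand: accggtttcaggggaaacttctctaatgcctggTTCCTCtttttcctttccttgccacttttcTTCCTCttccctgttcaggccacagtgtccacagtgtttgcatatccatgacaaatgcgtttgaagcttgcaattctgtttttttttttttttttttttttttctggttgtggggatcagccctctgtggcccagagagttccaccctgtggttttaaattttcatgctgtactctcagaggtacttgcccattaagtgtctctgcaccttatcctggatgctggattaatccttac
Spic, chr10:88682974-88683273, minus strand: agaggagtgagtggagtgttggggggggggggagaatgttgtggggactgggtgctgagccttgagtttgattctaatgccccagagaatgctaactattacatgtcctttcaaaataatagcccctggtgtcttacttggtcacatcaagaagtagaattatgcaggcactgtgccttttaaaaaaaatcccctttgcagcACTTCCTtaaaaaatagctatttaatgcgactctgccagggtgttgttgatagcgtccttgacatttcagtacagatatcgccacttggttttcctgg
Cd5l, chr3:87357631-87357930, plus strand: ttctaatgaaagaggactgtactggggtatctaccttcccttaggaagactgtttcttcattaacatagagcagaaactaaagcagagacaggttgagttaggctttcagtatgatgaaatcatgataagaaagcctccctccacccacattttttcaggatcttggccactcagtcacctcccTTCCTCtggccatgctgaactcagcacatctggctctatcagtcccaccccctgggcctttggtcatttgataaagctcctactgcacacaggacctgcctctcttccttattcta
C1qc, chr4:136892865-136893164, minus strand: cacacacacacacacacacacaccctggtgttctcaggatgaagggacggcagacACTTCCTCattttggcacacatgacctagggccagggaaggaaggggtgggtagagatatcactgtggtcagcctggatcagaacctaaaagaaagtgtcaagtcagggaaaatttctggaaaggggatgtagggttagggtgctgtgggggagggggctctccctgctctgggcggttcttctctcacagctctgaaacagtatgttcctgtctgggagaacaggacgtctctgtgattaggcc
GAGGAA was found in 15 of the 31 member windows (48.4%) and in 28.3% of all 32851 windows of the same length. AGGAAGT was found in 7 member windows (22.6%) and in 9.35% of all windows. The motifs overlap in GAGGAAGT, which 2 member windows (6.45%) and 3.2% of all windows hold. Counted by gene in place of by window, 15 of the 26 members held GAGGAA, and 6 of the 9 genes called lower that had a window. The letters were therefore present before genes that fell, before Cd5l and before C1q genes that were not called. A direct repeat of AGGTCA with 1 base between the copies, the spacing bound by PPARA with its partner RXR, was in no member window and in 0.0396% of all windows. The repeat with 4 bases between, the spacing bound by LXR with RXR, was in no member window and in 0.0152% of all. Only 13 and 5 of the 32851 windows held these exact repeats. Their absence from 31 windows therefore cannot tell whether PPARA or LXR binds there. A match to any of these letters is a description and not a binding site.

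In heterozygous fetuses of Ppara knockout dams, 11 of the 32 tested macrophage genes (34.4%) were lower than in heterozygous fetuses of heterozygous dams, and 2 (6.25%) were higher. The largest falls were in Cx3cr1, Nr1h3, Spic, Clec4a1, Vsig4 and Clec4f. Adgre1, Timd4, Marco and the C1q chains were not called. Over all 11800 genes with a test in this comparison the direction was the other way: 12.6% were called lower, 26.4% higher and 39.0% either way. The median difference was -0.32 over the members and 0.14 over all tested genes. The libraries of the groups did not overlap for 10 of the 32 members, against 36.3% of all tested genes. In a whole liver, fewer cells of a type and less RNA per cell cannot be told apart.

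Most of the lowest values lay in the presumed littermates, KODam_HetFetus replicates 1 and 2. Both were below both other KODam_HetFetus libraries for 21 of the 34 members (61.8%), and for 46.6% of all tested genes. Without that pair, 4 members were lower and none higher, while 4.43% of all genes were called lower and 24.1% either way. The 4 were Nr1h3, Clec4a1, Sirpa and Cd68, and the same 4 passed the test in every alternative tried, each a leave-one-out fit or one change of processing. The median over the members without the pair was -0.21. With the muscle and pancreas libraries left out instead, 9 members were lower and none higher, beside 10.9% of all genes lower. With a single litter behind the pair, what its dam and what its maternal genotype contributed cannot be told apart.

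**Figure D2:**
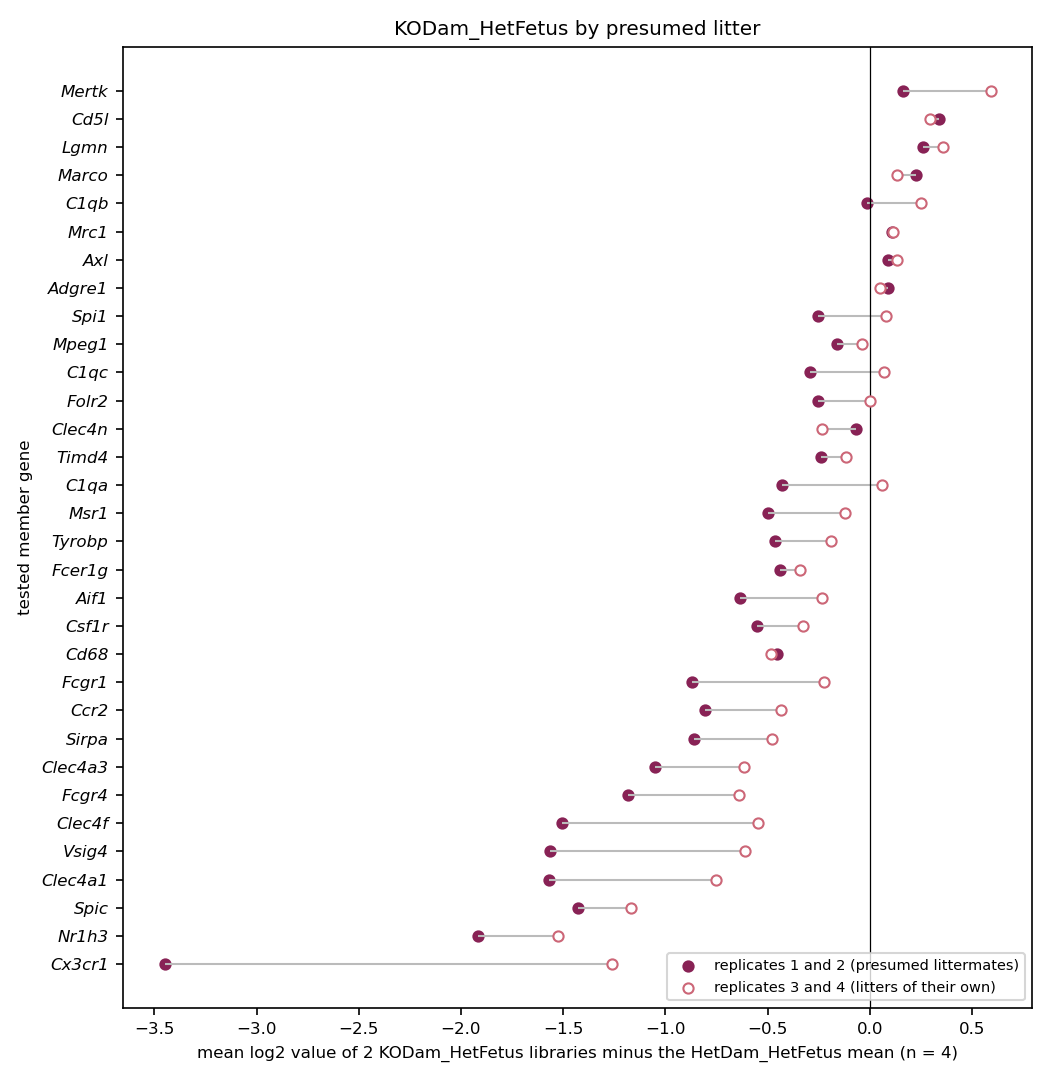
Mean log2 value of the presumed littermates (filled, replicates 1 and 2) and of the other KODam_HetFetus libraries (open, replicates 3 and 4), each minus the mean of the 4 HetDam_HetFetus libraries, for the 32 tested members. For most genes on the lower side the filled point lies farther left, and for Cd68, Cd5l and Lgmn the points nearly coincide.

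Of the lineage receptor and transcription factors, 3 of 4 were lower. Nr1h3 (chr2:91184061-91202829), which encodes LXR alpha, the oxysterol receptor that Kupffer cells depend on, stood at 3.14, 3.05, 2.93 and 3.12 in HetDam_HetFetus and at 0.87, 1.41, 1.50 and 1.57 in KODam_HetFetus. No library of one group reached the other, and the difference was -1.72 ± 0.305 (SE, adjusted p = 4.90e-04). Without the littermates it was -1.53 (adjusted p = 0.0101). Spic (chr10:88675269-88683023), a transcription factor of macrophages that recycle iron, stood at 2.74, 3.16, 3.07 and 2.96 in HetDam_HetFetus and 1.35, 1.76, 2.03 and 1.60 in KODam_HetFetus. Its groups were also apart, by -1.30 ± 0.344 (SE, adjusted p = 0.00665), and without the littermates the difference of -1.17 (adjusted p = 0.0598) was no longer called. Csf1r, the receptor for the growth factors CSF1 and IL-34, stood at 5.38, 5.10, 5.33 and 5.42 in HetDam_HetFetus and at 4.74, 4.78, 4.90 and 5.07 in KODam_HetFetus. Its highest KODam_HetFetus library lay just under its lowest HetDam_HetFetus library, and the difference was -0.44 ± 0.147 (SE, adjusted p = 0.0244). The Csf1r call was lost without HetDam_HetFetus replicate 1 or 4 or KODam_HetFetus replicate 1 or 2 (difference -0.41 to -0.39, adjusted p = 0.0566 to 0.0706), and without the littermate pair the difference was -0.33 (adjusted p = 0.200). Spi1, which encodes PU.1, differed by -0.09 (adjusted p = 0.639) and was not called.

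Kupffer cell surface markers did not move as one. Clec4f (chr6:83644542-83656116), a lectin restricted to Kupffer cells in the mouse, stood at 5.49, 4.30, 5.33 and 5.51 in HetDam_HetFetus and 3.70, 3.59, 4.22 and 5.00 in KODam_HetFetus. The groups overlapped, because HetDam_HetFetus replicate 2 was far below its group, and the difference was -1.03 ± 0.332 (SE, adjusted p = 0.0204). That call was lost without HetDam_HetFetus replicate 1 or 4 or KODam_HetFetus replicate 1 or 2 (difference -0.92 to -0.85, adjusted p = 0.0573 to 0.0682), and without the littermate pair the difference was -0.55 (adjusted p = 0.301). Vsig4, a receptor for complement fragments, had means of 2.98 ± 0.527 and 1.89 ± 0.567 (SD) and differed by -1.09 ± 0.386 (SE, adjusted p = 0.0322). It was not called without HetDam_HetFetus replicate 1, 2 or 3 or KODam_HetFetus replicate 1 or 2 (difference -1.12 to -0.92, adjusted p = 0.0535 to 0.0937), nor without the pair, at -0.61 (adjusted p = 0.339). Cd5l (chr3:87357881-87371074), a secreted protein of liver and splenic macrophages, went the other way, from 6.65, 6.12, 6.38 and 6.28 in HetDam_HetFetus to 6.72, 6.66, 6.72 and 6.58 in KODam_HetFetus, a rise of 0.32 ± 0.122 (SE, adjusted p = 0.0473). HetDam_HetFetus replicate 1 lay within the KODam_HetFetus range. The rise passed the test in 4 of 21 alternatives, and was lost without HetDam_HetFetus replicate 2, 3 or 4 or KODam_HetFetus replicate 1, 2, 3 or 4 (difference 0.24 to 0.35, adjusted p = 0.0530 to 0.154); without the pair it was 0.30 (adjusted p = 0.176).

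Adgre1, which encodes F4/80, stood at 3.26, 2.82, 3.30 and 3.69 in HetDam_HetFetus and 3.23, 3.48, 3.26 and 3.39 in KODam_HetFetus. The groups overlapped, and the difference of 0.07 (adjusted p = 0.749) had a 95% interval of -0.26 to 0.39. Timd4, the phosphatidylserine receptor of resident macrophages, stood at 2.66, 2.52, 2.13 and 2.50 in HetDam_HetFetus and 2.06, 2.37, 2.44 and 2.23 in KODam_HetFetus, with a difference of -0.18 (adjusted p = 0.413) and an interval of -0.53 to 0.17. Folr2, a folate receptor of tissue macrophages, differed by -0.13 (adjusted p = 0.621). Changes of 1 on the log2 scale lie outside both printed intervals, so a fall as deep as that of Clec4f was not seen in Adgre1 or Timd4.

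The complement C1q chains, made largely by macrophages, were not called. C1qa stood at 6.38, 6.33, 6.24 and 6.18 in HetDam_HetFetus and 5.85, 5.86, 6.36 and 6.32 in KODam_HetFetus, and the littermates held the lowest values of both groups. The differences were -0.18 (adjusted p = 0.267) for C1qa, 0.12 (adjusted p = 0.465) for C1qb and -0.11 (adjusted p = 0.489) for C1qc.

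Of 7 scavenger and clearance receptors, 6 were tested and 1 was lower. Sirpa (chr2:129591042-129632228), whose protein binds CD47 and restrains engulfment, stood at 4.31, 4.02, 4.10 and 4.27 in HetDam_HetFetus and 3.32, 3.30, 3.70 and 3.69 in KODam_HetFetus, without overlap. The difference was -0.67 ± 0.142 (SE, adjusted p = 0.00157), and -0.48 (adjusted p = 0.0425) without the littermates. The scavenger receptors Marco and Msr1 differed by 0.18 (adjusted p = 0.281) and -0.31 (adjusted p = 0.162), and the mannose receptor Mrc1 by 0.11 (adjusted p = 0.683). The receptor kinases Axl and Mertk, which bind dying cells through bridging proteins, differed by 0.11 (adjusted p = 0.530) and 0.38 (adjusted p = 0.198). Cd163, the receptor for hemoglobin bound to haptoglobin, was below the minimum for a test. It stood at 0.11, -0.44, -0.41 and -0.63 in HetDam_HetFetus and -1.56, -1.22, -0.83 and -0.11 in KODam_HetFetus, and the groups overlapped.

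Of the myeloid C-type lectins, 2 of 3 were lower. Clec4a1 (chr6:122921848-122934619) stood at 2.83, 2.37, 2.38 and 1.88 in HetDam_HetFetus and 0.89, 0.70, 1.34 and 1.89 in KODam_HetFetus. KODam_HetFetus replicate 4 just reached the lowest HetDam_HetFetus library, and the difference was -1.16 ± 0.232 (SE, adjusted p = 0.00108), or -0.75 (adjusted p = 0.0333) without the littermates. Clec4a3, its neighbour in the same lectin cluster, had means of 0.96 ± 0.502 and 0.13 ± 0.535 (SD) and differed by -0.83 ± 0.326 (SE, adjusted p = 0.0497). That call sat at the threshold and was lost without HetDam_HetFetus replicate 1, 2 or 3 or KODam_HetFetus replicate 1 or 3 (difference -0.91 to -0.57, adjusted p = 0.0557 to 0.186), and without the pair, at -0.62 (adjusted p = 0.234). Clec4n, which encodes the fungal receptor Dectin-2, differed by -0.15 (adjusted p = 0.438).

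Of the receptors for antibody and their adaptors, 1 of 4 was called. Fcgr4 (chr1:171018926-171029761), an activating receptor for IgG, stood at 2.97, 2.54, 2.45 and 2.33 in HetDam_HetFetus and 1.32, 1.46, 1.83 and 2.03 in KODam_HetFetus, without overlap. The difference was -0.91 ± 0.237 (SE, adjusted p = 0.00598), and -0.64 (adjusted p = 0.107) without the littermates, which is no call. Fcgr1, the high-affinity IgG receptor, and the shared signalling chain Fcer1g had differences of -0.55 (adjusted p = 0.0678) and -0.39 (adjusted p = 0.0527), and the libraries did not overlap for Fcer1g. Tyrobp, the adaptor DAP12, differed by -0.33 (adjusted p = 0.110).

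Of the chemokine receptors, Cx3cr1 (chr9:120048683-120068296), which binds fractalkine, stood at 0.84, -0.42, 0.07 and 0.77 in HetDam_HetFetus and -3.64, -2.63, -1.37 and -0.52 in KODam_HetFetus. Its values were low and spread widely, the littermates were lowest, and the groups did not overlap. The difference was -2.35 ± 0.552 (SE, adjusted p = 0.00310), and -1.26 (adjusted p = 0.0818) without the littermates, which is no call. Ccr2, the receptor that draws monocytes toward CCL2, stood at 0.09, -0.90, -0.10 and 0.03 in HetDam_HetFetus and -0.95, -1.10, -0.88 and -0.43 in KODam_HetFetus, with overlap, and differed by -0.62 (adjusted p = 0.182).

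Of the remaining members, Cd68 (chr11:69664213-69666170), a glycoprotein of macrophage lysosomes, stood at 4.27, 4.21, 4.04 and 4.19 in HetDam_HetFetus and 3.66, 3.79, 3.70 and 3.69 in KODam_HetFetus. Every KODam_HetFetus library was below every HetDam_HetFetus library, the littermates did not stand apart, and the difference was -0.47 ± 0.114 (SE, adjusted p = 0.00396) with the pair and -0.48 (adjusted p = 0.0248) without it. Lgmn, the lysosomal protease legumain, rose from 6.08, 5.79, 6.07 and 5.97 in HetDam_HetFetus to 6.20, 6.27, 6.32 and 6.35 in KODam_HetFetus, by 0.31 ± 0.111 (SE, adjusted p = 0.0348) and without overlap. That call was lost without HetDam_HetFetus replicate 2 or 4 or KODam_HetFetus replicate 2, 3 or 4 (difference 0.24 to 0.31, adjusted p = 0.0574 to 0.111), and without the pair, at 0.36 (adjusted p = 0.0732). Mpeg1, a pore-forming protein of phagosomes, and Aif1, the actin-binding protein IBA1, differed by -0.10 (adjusted p = 0.635) and -0.43 (adjusted p = 0.159). Ms4a7, a membrane protein of macrophages, was below the minimum, at -2.59 to -1.03 and -2.72 to -1.85.

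The rises of Cd5l and Lgmn depended on the scaling of the libraries, and the 11 falls kept their calls. With trimmed-mean scaling 15 members were lower and none higher, beside 18.9% of all genes lower, with Cd5l at 0.19 and Lgmn at 0.18. With renewed quantile normalization 14 were lower and none higher, beside 17% of all genes lower. Trimmed-mean scaling moved the median of all tested genes from 0.14 to 0.02 and the share of rises among all calls from 67.8% to 49.9%. The signs of the uncalled differences of Adgre1, C1qb, Mrc1 and Axl turned with it. With the presumed litter as a random block and the deposited scaling, 7 members were lower and 1 higher, beside 9.07% and 22.9% of all genes. Clec4f, Csf1r, Vsig4, Clec4a3 and Cd5l lost their calls in that fit, with adjusted p from 0.0533 to 0.137.

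**Figure D3:**
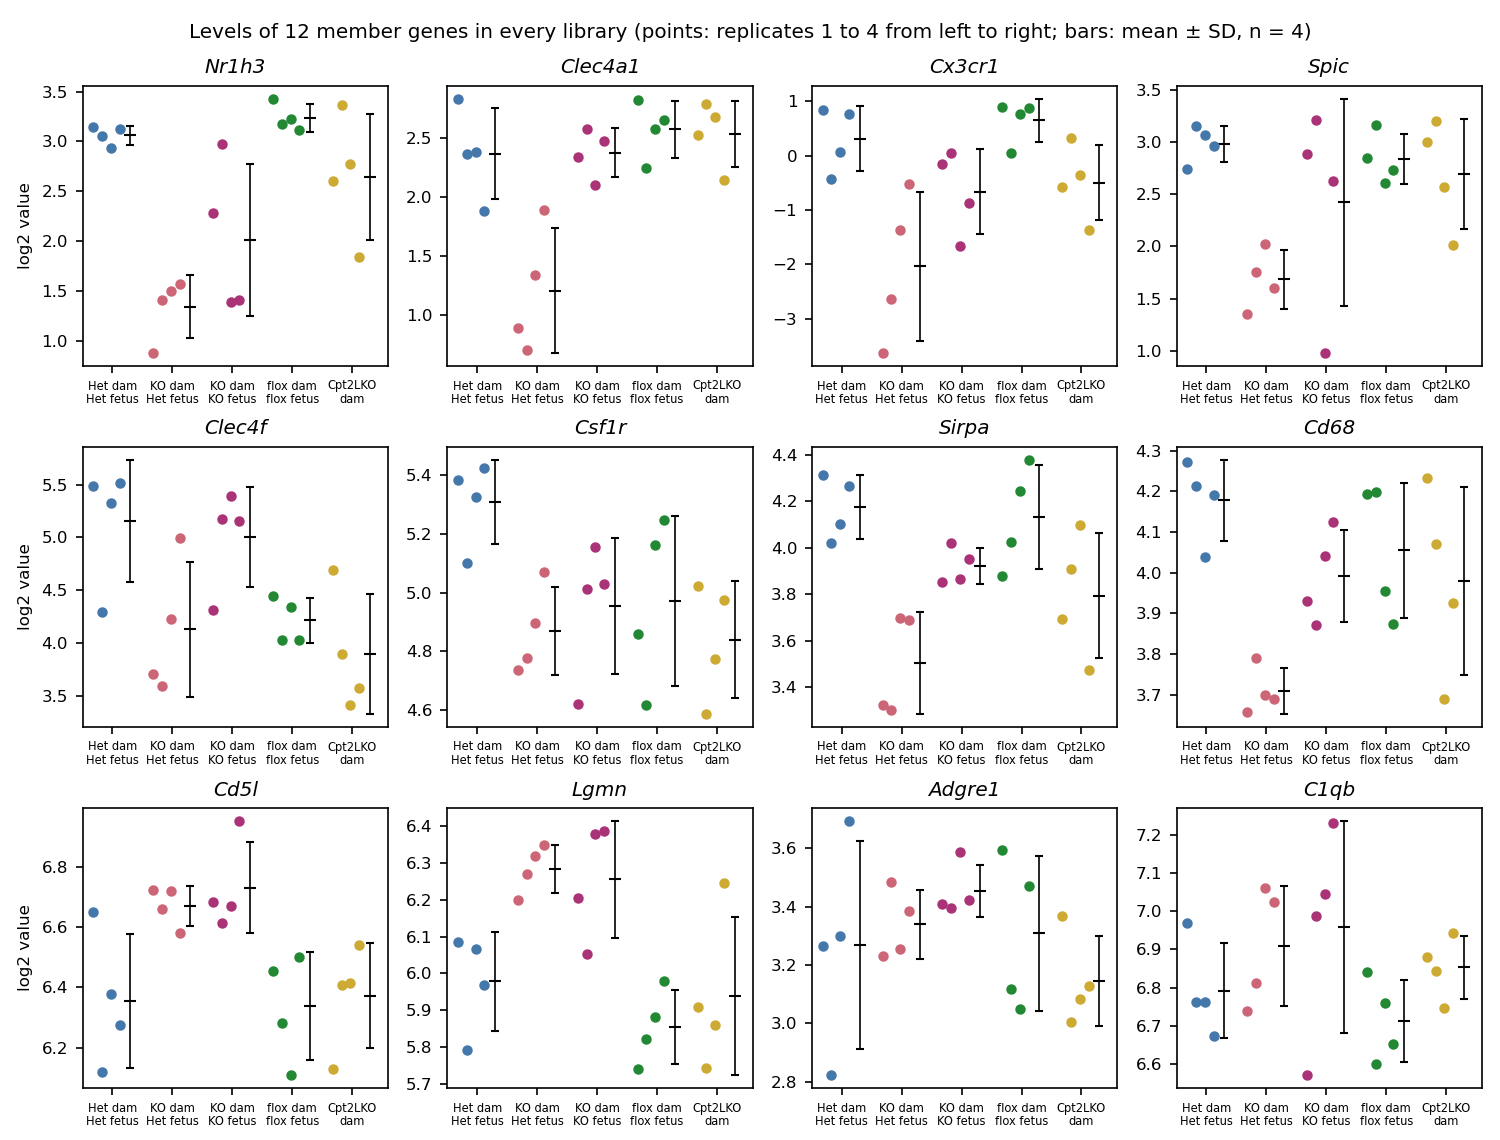
Log2 values of 12 of the genes in every library, with replicates 1 to 4 from left to right and the mean ± SD (n = 4) beside each group. KODam_HetFetus lies below HetDam_HetFetus without overlap for Nr1h3, Spic, Cx3cr1, Csf1r, Sirpa and Cd68, Cd5l and Lgmn lie higher, and each panel has its own axis.

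Between knockout and heterozygous fetuses of Ppara knockout dams, 1 of the 32 tested members was called, and it was higher in the knockout fetuses. Clec4a1 stood at 0.89, 0.70, 1.34 and 1.89 in KODam_HetFetus and at 2.34, 2.58, 2.10 and 2.47 in KODam_KOFetus, without overlap, a difference of 1.17 ± 0.232 (SE, adjusted p = 0.0114). Over all genes 0.0254% were called higher, 0.796% lower and 0.822% either way. The Clec4a1 call was lost without KODam_HetFetus replicate 1 or 2 (difference 1.00 to 1.06, adjusted p = 0.0558 to 0.0581), and without the littermate pair the difference was 0.76 (adjusted p = 0.257). With the litter as a random block it was 1.06 (adjusted p = 0.0680), also no call. With only the groups compared in the fit its adjusted p was 0.115. This comparison shares the KODam_HetFetus libraries with the one above, so a value that is low in them lowers one difference and raises the other.

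No other member passed the test, and 28 of 32 differences were positive with a median of 0.22, against -0.01 over all tested genes. By an unadjusted p under 0.05 in limma, 13 members were higher and none lower, and 5.30% and 5.60% of all genes. Nr1h3 stood at 2.28, 2.97, 1.38 and 1.41 in KODam_KOFetus. Replicate 2 lay within the HetDam_HetFetus range, its presumed littermate, replicate 1, between the groups, and the other libraries within the KODam_HetFetus range, and the difference was 0.67 (adjusted p = 0.444). Spic stood at 2.88, 3.21, 0.98 and 2.62, with replicate 3 alone below every KODam_HetFetus library, and differed by 0.74 (adjusted p = 0.449). Without that library Spic was called, at 1.22 with an adjusted p of 0.00950, and the share of all genes called higher was 0.424% in place of 0.0254%.

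Sirpa and Cd68 stood closer to HetDam_HetFetus in the knockout fetuses without passing the test. Sirpa stood at 3.85, 4.02, 3.86 and 3.95, above every KODam_HetFetus library, with a difference of 0.42 (adjusted p = 0.303). Cd68 stood at 3.93, 3.87, 4.04 and 4.12, also without overlap, and differed by 0.28 (adjusted p = 0.398). Clec4n, in contrast, stood above both heterozygous groups. Its mean was 3.17 ± 0.134 (SD) in KODam_KOFetus, 2.64 ± 0.143 in KODam_HetFetus and 2.79 ± 0.115 in HetDam_HetFetus, and the fetal genotypes differed by 0.54 (adjusted p = 0.140), again without overlap. The libraries did not overlap for these 3 and Clec4a1, 4 of 32 members, and for 5.67% of all tested genes.

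The remaining genes with values in every library overlapped between KODam_HetFetus and KODam_KOFetus. Cx3cr1 stood at -0.15, 0.05, -1.67 and -0.87 in KODam_KOFetus, with a difference of 1.38 (adjusted p = 0.394). Ccr2 stood at 0.06, 0.41, -0.46 and 0.34, with a difference of 0.93 (adjusted p = 0.383). Clec4f stood at 4.31, 5.17, 5.39 and 5.15, with a difference of 0.88 (adjusted p = 0.364). In all of these the knockout mean was the higher one, but the spread between libraries was wide. Fcgr4 stood at 1.99, 2.36, 2.34 and 2.66 and differed by 0.68 (adjusted p = 0.333), and Csf1r stood at 4.62, 5.01, 5.15 and 5.03 and differed by 0.08 (adjusted p = 0.852). Adgre1 stood at 3.41, 3.40, 3.59 and 3.42, Timd4 at 2.13, 2.38, 2.58 and 2.48 and C1qa at 5.79, 6.28, 6.24 and 6.18, with differences of 0.11, 0.12 and 0.03. Cd5l stood at 6.68, 6.61, 6.67 and 6.95 and Lgmn at 6.21, 6.05, 6.38 and 6.39, with differences of 0.06 and -0.03. Cd5l and Lgmn therefore lay near the KODam_HetFetus level in KODam_KOFetus. Adgre1, Timd4 and C1qa had not been called between KODam_HetFetus and HetDam_HetFetus. Cd163, untested, stood at -2.07, -0.85, -1.55 and -1.48, lower than every HetDam_HetFetus library.

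Between knockout fetuses of knockout dams and heterozygous fetuses of heterozygous dams, 1 member was lower and 1 higher of 32 tested. Nr1h3 differed by -1.05 ± 0.305 (SE, adjusted p = 0.0185) and Cd5l by 0.38 ± 0.122 (SE, adjusted p = 0.0317). Over all genes 7.31% were called lower, 17.4% higher and 24.7% either way. The member median was -0.01 and that of all genes 0.14. The Nr1h3 call was lost without KODam_KOFetus replicate 3 or 4 (difference -0.85 to -0.84, adjusted p = 0.0666 to 0.0713), the libraries that held its lowest values. The Cd5l call was lost without HetDam_HetFetus replicate 2, 3 or 4 or KODam_KOFetus replicate 4 (difference 0.30 to 0.38, adjusted p = 0.0564 to 0.111), with the muscle and pancreas libraries left out and with only the groups compared in the fit. With the litter as a random block Cd5l was at 0.39 (adjusted p = 0.0552), which is no call either. Clec4n, at 0.39 (adjusted p = 0.0600), was the only tested member whose libraries did not overlap, against 26.4% of all tested genes. Clec4a1, Clec4f, Spic and Cx3cr1 differed by 0.01, -0.15, -0.56 and -0.97 here, against -1.16, -1.03, -1.30 and -2.35 in the heterozygous fetuses of knockout dams. The comparisons share the HetDam_HetFetus libraries. With trimmed-mean scaling Csf1r, Nr1h3 and Sirpa were lower and no member higher, beside 11.7% and 9.78% of all genes. With the replicate number as a block 4 members were called, Csf1r and Nr1h3 lower and Cd5l and Lgmn higher, beside 7.67% and 18.2% of all genes.

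**Figure D4:**
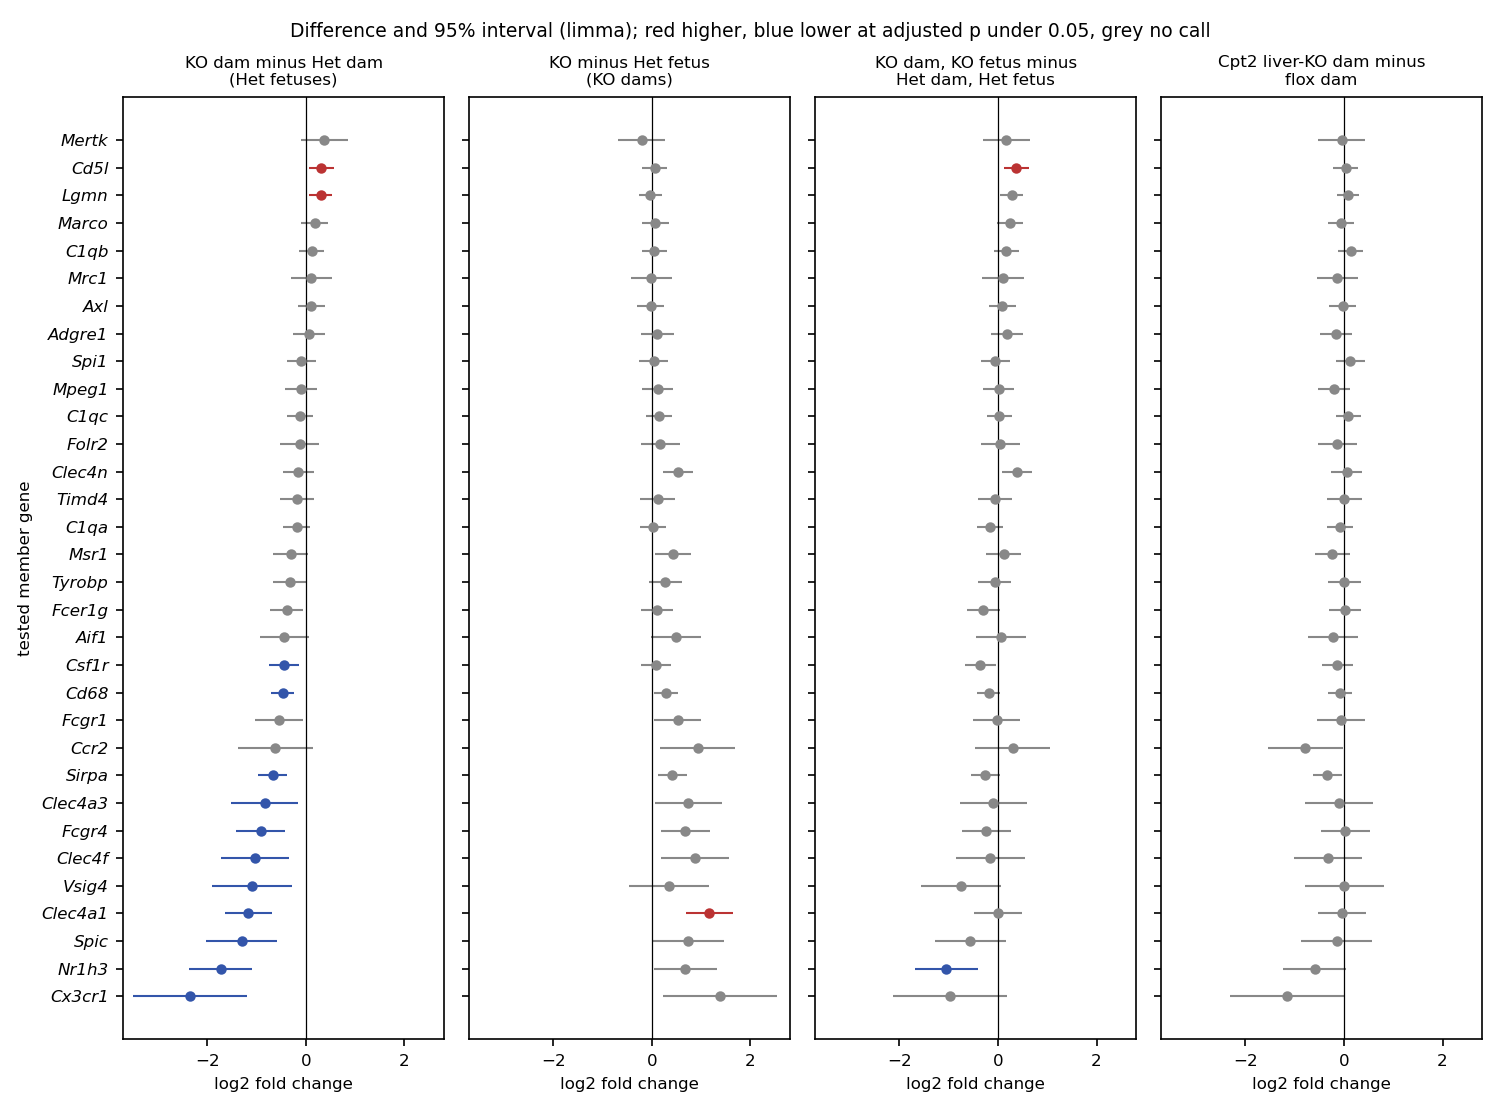
Log2 differences of the 32 tested members (rows) for 4 of the comparisons, with bars for the 95% interval. Red points were called higher and blue points lower at an adjusted p under 0.05, and grey points were not called. The calls of the maternal Ppara knockout lie mostly to the left of 0, and no member is called for the maternal liver Cpt2 knockout.

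Fetuses of dams without Cpt2 in the liver gave no called member and no called gene among 11805 tested (0%). By an unadjusted p under 0.05 in limma, 2 members were lower and none higher, and 5.57% and 5.53% of all genes. The member median was -0.07 and that of all genes -0.01. The 2 members were Sirpa, at -0.34 (adjusted p = 0.397), and Ccr2, at -0.78 (adjusted p = 0.440). Sirpa stood at 3.88, 4.02, 4.24 and 4.38 in FloxDam_FloxFetus and 3.69, 3.91, 4.10 and 3.48 in Cpt2LKODam_FloxFetus. Ccr2 stood at 0.52, 0.36, 0.07 and 1.25 in FloxDam_FloxFetus and -0.83, 0.34, 0.61 and -1.05 in Cpt2LKODam_FloxFetus. For both the groups overlapped, as they did for all 32 tested members. The libraries of these groups did not overlap for 6.04% of all tested genes.

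Within Cpt2LKODam_FloxFetus, replicate 4 held the lowest value of Nr1h3, Spic, Sirpa, Ccr2, Cx3cr1, Clec4a1 and Fcgr4. Nr1h3 stood at 3.43, 3.17, 3.22 and 3.11 in FloxDam_FloxFetus and 2.60, 3.37, 2.78 and 1.84 in Cpt2LKODam_FloxFetus, a difference of -0.59 (adjusted p = 0.482) with a 95% interval of -1.23 to 0.05. Spic stood at 2.85, 3.17, 2.61 and 2.73 in FloxDam_FloxFetus and 3.00, 3.20, 2.57 and 2.01 in Cpt2LKODam_FloxFetus, and differed by -0.14 (adjusted p = 0.903). Csf1r stood at 4.86, 4.62, 5.16 and 5.25 in FloxDam_FloxFetus and 5.02, 4.59, 4.78 and 4.98 in Cpt2LKODam_FloxFetus, and differed by -0.13 (adjusted p = 0.774). The groups overlapped for all of them. Cx3cr1 stood at 0.90, 0.06, 0.77 and 0.88 in FloxDam_FloxFetus and -0.57, 0.32, -0.35 and -1.37 in Cpt2LKODam_FloxFetus, with a difference of -1.15 (adjusted p = 0.452) and an interval of -2.30 to 0.01. Clec4a1 stood at 2.82, 2.24, 2.57 and 2.65 in FloxDam_FloxFetus and 2.52, 2.78, 2.67 and 2.15 in Cpt2LKODam_FloxFetus, with a difference of -0.04 (adjusted p = 0.963) and an interval of -0.53 to 0.45. The Clec4a1 interval leaves out the fall seen in fetuses of Ppara knockout dams, while that of Cx3cr1 is wide. Fcgr4 stood at 3.00, 1.97, 2.52 and 2.39 in FloxDam_FloxFetus and 2.78, 2.97, 2.18 and 2.06 in Cpt2LKODam_FloxFetus, and differed by 0.03 (adjusted p = 0.974).

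The Kupffer and C1q markers also overlapped between these groups. Adgre1 stood at 3.59, 3.12, 3.05 and 3.47 in FloxDam_FloxFetus and 3.37, 3.01, 3.08 and 3.13 in Cpt2LKODam_FloxFetus, Clec4f at 4.45, 4.03, 4.34 and 4.03 in FloxDam_FloxFetus and 4.69, 3.90, 3.42 and 3.57 in Cpt2LKODam_FloxFetus, and the differences were -0.16 (adjusted p = 0.724) and -0.32 (adjusted p = 0.752). Cd5l stood at 6.46, 6.28, 6.11 and 6.50 in FloxDam_FloxFetus and 6.13, 6.41, 6.41 and 6.54 in Cpt2LKODam_FloxFetus, and Timd4 at 2.83, 2.56, 2.13 and 2.19 in FloxDam_FloxFetus and 2.64, 2.42, 2.11 and 2.59 in Cpt2LKODam_FloxFetus, with differences of 0.04 (adjusted p = 0.936) and 0.01 (adjusted p = 0.987). C1qa stood at 6.22, 6.28, 6.38 and 6.11 in FloxDam_FloxFetus and 6.26, 6.19, 6.05 and 6.19 in Cpt2LKODam_FloxFetus, and differed by -0.08 (adjusted p = 0.849). No marker among these separated the groups. Cd68 stood at 4.19, 4.20, 3.95 and 3.87 in FloxDam_FloxFetus and 4.23, 4.07, 3.69 and 3.92 in Cpt2LKODam_FloxFetus, Lgmn at 5.74, 5.82, 5.88 and 5.98 in FloxDam_FloxFetus and 5.91, 5.74, 5.86 and 6.25 in Cpt2LKODam_FloxFetus, with differences of -0.08 (adjusted p = 0.837) and 0.08 (adjusted p = 0.809). Cd163 was untested here too, at -0.41, -1.32, 0.26 and 0.65 in FloxDam_FloxFetus and -0.31, -0.12, -0.19 and -0.91 in Cpt2LKODam_FloxFetus.

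Whether the maternal Ppara and the maternal Cpt2 knockout differed in their effect was tested as the difference between the differences. No member was called, and no gene of 11798 (0%). By an unadjusted p under 0.05 in limma, 5 members were lower and none higher, and 4.36% and 15.5% of all genes. The 5 were Clec4a1 at -1.12 ± 0.328 (SE, adjusted p = 0.129), Fcgr4 at -0.94 (adjusted p = 0.160), Nr1h3 at -1.13 (adjusted p = 0.174), Cd68 at -0.39 (adjusted p = 0.197) and Spic at -1.15 (adjusted p = 0.205). Without Cpt2LKODam_FloxFetus replicate 4, Clec4a1 was called at -1.25 with an adjusted p of 0.0493. In that fit 343 genes were called higher and 78 lower, 2.91% and 0.661% of those tested, so the absence of calls over all libraries turned on this library. A difference between the arms is therefore not shown for these genes by the test over all libraries.

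The control groups of the arms, HetDam_HetFetus and FloxDam_FloxFetus, gave no called member. Of all genes 0.0593% were called higher in HetDam_HetFetus, 0.0763% lower and 0.136% either way. By an unadjusted p under 0.05 in limma, 2 members were higher and 2 lower, and 0.720% and 15.8% of all genes. Clec4f was 0.94 (adjusted p = 0.192) and Csf1r 0.34 (adjusted p = 0.257), while Msr1 was -0.38 (adjusted p = 0.269) and Ccr2 -0.77 (adjusted p = 0.297). The libraries did not overlap for Msr1 and C1qc, 2 of 32 members, and for 10.1% of all tested genes. Clec4f in KODam_HetFetus, at 4.13 ± 0.641 (SD), was near its level of 4.21 ± 0.216 in FloxDam_FloxFetus. Nr1h3, in contrast, stood at 3.23 ± 0.136 in FloxDam_FloxFetus and 3.06 ± 0.0963 in HetDam_HetFetus, both above all KODam_HetFetus libraries.

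Across the 5 groups KODam_HetFetus had the lowest mean for 20 of the 34 members and the highest for 4. HetDam_HetFetus had the highest mean for 11, FloxDam_FloxFetus for 10 and KODam_KOFetus for 7. The members differed in how much they varied. The pooled SD within groups ran from 0.145 for Lgmn and 0.146 for Cd68 to 0.837 for Cx3cr1 on the log2 scale. The range of the 5 group means was widest for Cx3cr1 (2.69) and Nr1h3 (1.89), and narrowest for Spi1 (0.14). Spi1, Timd4, C1qa and C1qc, whose group means spanned at most 0.185, were called in none of the 6 comparisons.

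Other genes of macrophage biology, from lists chosen for these samples, changed in both directions in KODam_HetFetus against HetDam_HetFetus. Of 6 tested growth and recruitment ligands, Bmp2, a ligand of liver endothelial cells that induces hepcidin, was higher, by 1.29 ± 0.256 (SE, adjusted p = 0.00107). Of 10 genes of heme and iron recycling, 3 were higher and 3 lower, beside 26.4% and 12.6% of all genes. The heme transporter Slc48a1 rose by 0.61 ± 0.128 (SE, adjusted p = 0.00152), while ferroportin (Slc40a1), the iron exporter, differed by -0.98 ± 0.211 (SE, adjusted p = 0.00177) and the phagosomal iron transporter Slc11a1 by -0.62 ± 0.133 (SE, adjusted p = 0.00177). Hmox1, which opens the heme ring, was called between the fetal genotypes, at 0.51 ± 0.104 (SE, adjusted p = 0.0155), and no gene of the list was called there without the littermate pair or without the muscle and pancreas libraries. Of 20 lysosome and phagosome genes, 3 were higher and 6 lower. The lower ones included Ncf1 at -1.65 (adjusted p = 2.90e-04) and Ncf4 at -1.09 (adjusted p = 0.00178), subunits of the phagocyte oxidase, and the lysosomal enzyme Hexa at -0.62 (adjusted p = 0.00126).

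Surface and signalling genes of myeloid cells were lower in 14 of 30 and higher in none, beside 12.6% of all genes called lower. They included the inhibitory receptor Pirb at -1.87 (adjusted p = 3.12e-04), the purinergic receptor P2ry13 at -1.93 (adjusted p = 0.00124) and the phosphatase Ptpn6 at -0.70 (adjusted p = 0.00163). Of 9 tested genes of Toll-like receptor signalling, Tlr13 and Ly96 were lower, at -0.85 (adjusted p = 0.0168) and -0.69 (adjusted p = 0.0493). Of 15 other macrophage regulators tested, 3 were lower and 1 was higher, beside 12.6% and 26.4% of all genes, and the median of the list was -0.005. Maf was lower at -0.60 (adjusted p = 0.00686), Stat6 was lower at -0.46 (adjusted p = 0.0108), and Runx1, a regulator of blood stem cells, was higher at 0.91 (adjusted p = 0.00524). Of 9 target genes of the LXR receptors, Lpcat3 and Mylip were higher, at 0.69 (adjusted p = 2.28e-04) and 0.65 (adjusted p = 0.00908), and Scd2 lower, at -0.95 (adjusted p = 0.00652). These calls, 2 of 9 higher and 1 of 9 lower, are near the shares of all genes, 26.4% and 12.6%. Nr1h3, which encodes one of these receptors, was lower in the same libraries.

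Without the littermate pair, the lower genes were 6 of 30 for surface and signalling, 2 of 20 for lysosome and phagosome, 2 of 10 for heme and iron recycling and none for Toll-like signalling, beside 4.43% of all genes. The higher ones were then 1 of 10 for heme and iron recycling and 1 of 20 for lysosome and phagosome, beside 19.7% of all genes. With trimmed-mean scaling, 1 of 10 genes of heme and iron recycling was higher and 5 lower. Of the 20 lysosome and phagosome genes none was higher and 9 were lower. In that fit 18.8% of all genes were called higher and 18.9% lower. In the combined comparison, 4 of 30 surface and signalling genes were lower and 1 was higher, beside 7.31% and 17.4% of all genes. The higher one was Trem2, a lipid receptor of macrophages, at 0.81 (adjusted p = 0.0470). Without the muscle and pancreas libraries 7 of that list were lower and none higher, and with trimmed-mean scaling 10 were lower and none higher, beside 7.31% and 11.7% of all genes lower. Of the 9 LXR targets 4 were lower in the combined comparison, beside 7.31% of all genes. Among them were Abca1 at -1.19 (adjusted p = 0.0285) and Pltp at -0.43 (adjusted p = 0.0353). Without the muscle and pancreas libraries none of the 9 was. Lpcat3 was lower in knockout than in heterozygous fetuses of knockout dams, at -1.03 (adjusted p = 7.96e-06). No gene of these lists was called for the maternal Cpt2 knockout, where no gene at all was.

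Markers of neutrophils and monocytes were lower in KODam_HetFetus than in HetDam_HetFetus. Of 19 neutrophil and granule markers, 16 were lower and none higher, and of 5 tested monocyte markers all 5 were lower. Of all genes 12.6% were called lower. Lyz2 was at -1.64 (adjusted p = 1.49e-04) and Ly6c2 at -1.05 (adjusted p = 0.00184). The other 4 of the 9 monocyte markers, Ms4a4c, Vcan, Ly6c1 and Nr4a1, were under the minimum for a test. The summed linear value of the monocyte list lay between 469 and 564 in HetDam_HetFetus, between 146 and 204 in KODam_HetFetus and between 227 and 403 in KODam_KOFetus. In the Cpt2 arm it lay between 393 and 526 in FloxDam_FloxFetus and between 178.6 and 421 in Cpt2LKODam_FloxFetus. In HetDam_HetFetus and KODam_HetFetus most of this monocyte sum came from Lyz2, whose mean log2 values were 8.76 and 7.12. The sum therefore followed mainly this 1 gene and does not measure monocytes as a whole. These values give the weight of a gene in the sum and do not compare transcript levels between genes. Those of Ly6c2, the next of the called markers, were 5.54 and 4.49. The neutrophil list summed to between 5980 and 9021 in HetDam_HetFetus, between 3431 and 5751 in KODam_HetFetus and between 4154 and 7122 in KODam_KOFetus. FloxDam_FloxFetus lay between 6219 and 7397, and Cpt2LKODam_FloxFetus between 4222 and 7357. KODam_HetFetus lay under HetDam_HetFetus without overlap in both lists. The part of these cells in the differences of the macrophage genes was not tested. Without the littermate pair, 6 neutrophil and 4 monocyte markers were lower, beside 4.43% of all genes. In the combined comparison 11 of 19 neutrophil and 3 of 5 monocyte markers were lower, beside 7.31% of all genes. Of the 32 tested macrophage members 1 was lower there.

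In the other lists few markers were called between KODam_HetFetus and HetDam_HetFetus, where 26.4% of all genes were called higher and 12.6% lower. Erythroid markers were higher in 2 of 10, hepatocyte markers higher in 1 and lower in 1 of 10, and endothelial markers higher in 1 and lower in 2 of 8. The lower endothelial genes were Clec4g at -2.31 (adjusted p = 2.72e-04) and Fcgr2b at -1.34 (adjusted p = 7.75e-04), and Kdr was higher at 0.65 (adjusted p = 0.0393). Stab1, Stab2 and Lyve1 of the same list were not called, and the median of the list was -0.09. One marker was lower among 8 of platelets (Ppbp), the only tested marker of T and NK cells was lower (Gzma), and 1 of 4 of mast cells and basophils was higher (Mcpt8). No stellate marker of 7 and no dendritic cell marker of 2 was called. The other 7 of 9 dendritic cell markers and 8 of 9 T and NK cell markers, Cd3e, Cd4 and Cd8a among them, were under the minimum for a test. Mcpt8, a basophil protease, was also the marker called between the control groups, at -3.21 (adjusted p = 0.00209).

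**Figure D5:**
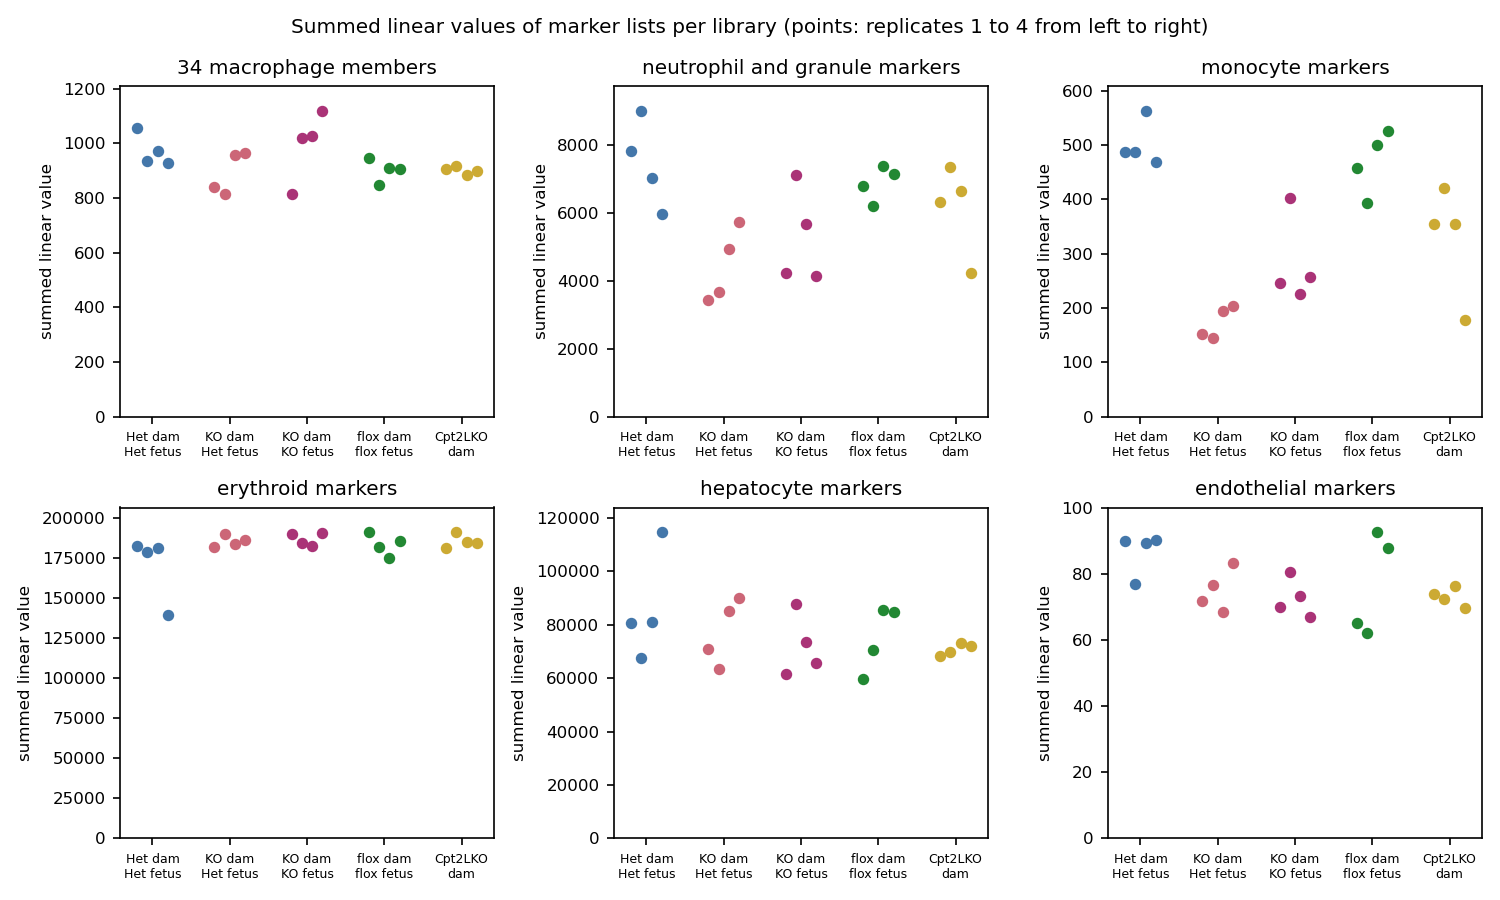
Summed linear values of the 34 macrophage members and of 5 marker lists in every library, with replicates 1 to 4 of each group from left to right and axes starting at 0. The monocyte sum of KODam_HetFetus is 146 to 204 and that of HetDam_HetFetus 469 to 564. The members sum to 815 to 967 in KODam_HetFetus and to 929 to 1058 in HetDam_HetFetus, with overlap. Genes with high values, such as the uncalled C1qb and C1qc, weigh most in the member sum, so it shows little of the falls in members with low values. In both of these groups most of the monocyte sum is Lyz2.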

How the data were processed

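Poly(A) RNA of 20 fetal livers was sequenced as single reads of 75 nucleotides, per the labels' protocols. The tools were Partek 7.0 and bcl2fastq 2.17.1.14 with the build GRCm38.p6, per the submitters' processing notes. The authors deposited log2 values, the same quantiles in every library, of a quantity that is not named. How reads were counted, and whether by strand, is not given in the sources used here. A blank cell was taken as missing, and 23334 to 26255 genes had a value per library. The depth is unknown, so the precision of low values cannot be stated.

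All libraries entered 1 limma fit (limma 3.58.1, R 4.3.3; lmFit, contrasts.fit, eBayes with a trend; 15 residual degrees of freedom) over 11807 genes, with 5 group means and 6 comparisons. Tests were two-sided, with Benjamini-Hochberg adjustment over all genes of a comparison. Labels do not say that fetuses of a group came from separate dams, so p-values measure the spread between fetuses. The members and lists were chosen with earlier results of these data known. Every member is accounted for by role. Values in every library are given for 10 fixed anchors and, per comparison, for the 6 called members of lowest p, and for other lists up to 3 called genes of lowest p. Other genes named beside a count, such as Trem2, Stat6, Pltp and the markers of other cells, were chosen after their values were seen. A few genes that the rule would name are not reported here. Replicate numbers were taken to pair samples where all same-numbered deviations correlate above 0.1. This held only between the control groups (0.127 to 0.323), and there no member was called with or without the block. The same-numbered control fetuses carry different presumed litter numbers and some differ in sex, so the labels give no pairing. The alternatives were other filters, pseudocounts, scalings, samples and blocks.

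Promoter windows and gene positions came from RefSeq (GRCm38.p6), in which 41223 of 45802 symbols and all 34 members matched. In GENCODE M21 transcripts 32 members shared no stretch of 75 bases with another gene, and Spic and Ccr2 shared 1.1% and 1.16% of theirs.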

Additional observations from a re-analysis of the deposited data

Results flagged for a closer look

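Each gene was examined in each group of 4 libraries, 170 times in all, for a highest or lowest library far from the nearest other (a gap that, over the group's whole range, passes Dixon's 95% critical value). Chance flags about 1 in 20 such groups, and 9 were flagged.

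Adgre1 stood at 3.59 in KODam_KOFetus replicate 3, above the next library at 3.42. In HetDam_HetFetus replicate 2, Clec4f was 4.30, below the next at 5.33. The value of Vsig4 in FloxDam_FloxFetus replicate 2 was 1.82, below the nearest at 2.99. Marco stood at 5.89 in HetDam_HetFetus replicate 1, above the next library at 5.73. In Cpt2LKODam_FloxFetus replicate 1, Mertk was 1.72, below the next at 2.31. The value of Clec4n in KODam_HetFetus replicate 1 was 2.85, above the nearest at 2.59. Cx3cr1 stood at 0.0585 in FloxDam_FloxFetus replicate 2, below the next library at 0.77. In HetDam_HetFetus replicate 2, Mpeg1 was 3.69, below the next at 4.18. The value of Mpeg1 in KODam_HetFetus replicate 4 was 4.17, above the nearest at 3.92.

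No member passed the test of the difference between the maternal effects, and no explanation was tested for the libraries above.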

How the results depend on the processing

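Of the 13 members called for the maternal Ppara knockout, Nr1h3, Clec4a1, Sirpa and Cd68 passed the test in all 21 alternatives, Spic and Fcgr4 in 20 of 21 and Cx3cr1 in 19 of 20, each losing the call without the presumed littermate pair. Clec4f, Csf1r and Vsig4 passed in 14 of 21, Lgmn in 11 of 21, Clec4a3 in 6 of 20 and Cd5l in 4 of 21. No call changed its sign. The count of called members was 8 with the litter as a random block (consensus correlation 0.566), beside 31.9% of all genes, and 4 without the pair, beside 24.1%. It was 8 to 12 when 1 library was left out, beside 30% to 35.7% of all genes, with 8 without KODam_HetFetus replicate 1 or 2. For the fetal knockout it was 0 with only the groups compared in the fit, with the litter block and without the pair, beside 0.534%, 0.618% and 0.949% of all genes. It was 0 to 2 with 1 library left out, beside 0.635% to 1.25%. For the combined comparison it was 4 with the replicate block (25.8% of all genes), 1 with the litter block (19.7%) and 1 without the muscle and pancreas libraries (20.4%). It was 0 to 4 with 1 library left out, beside 15.5% to 25.6% of all genes (0 without KODam_KOFetus replicate 4, 4 without replicate 2). For the difference of the maternal effects it was 0 to 1, beside 0% to 3.57% of all genes. For the maternal Cpt2 knockout and the control groups it was 0 throughout, beside at most 0.00847% and 0.297% of all genes. The cause of these changes was not tested, beyond the smaller number of libraries in the fits that left some out.

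Outside the control groups same-numbered deviations did not all correlate above 0.1 (-0.228 to -0.0814 for the maternal Ppara knockout), and those samples were not taken as paired. With the replicate block 11 members were called for the maternal Ppara knockout and 1 for the fetal knockout, beside 39.7% and 0.864% of all genes. With a pseudocount of 4 the difference of Cx3cr1 was -0.29, because low values shrink on that scale.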
